A study of Mus musculus with 16 samples.

Results

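The 45 genes described here encode the machinery that copies chromosomal DNA: the proteins that license replication origins, the MCM helicase and the factors that activate it, the sliding clamp and its loader, the polymerases and primase, the proteins that coat single strands and join Okazaki fragments, the enzymes that make deoxynucleotides, and the factors that restore chromatin and DNA methylation behind the fork. The list of these genes was chosen with earlier results of these data known. Members were taken by name, as the listed genes with a probe on the array, out of 34763 gene symbols on it. They were represented by 59 probes, of which 53 passed the filter on dim probes, so that 44 of the 45 genes were tested among 21985 genes in all. The arrays were 2-colour Agilent designs that took RNA of 16 whole melanoma biopsies from mice in Cy5 and a Universal Mouse Reference, a commercial pool of RNA from mouse cell lines, in Cy3. The 4 groups of 4 biopsies were tumours treated for 4 days, tumours treated for 60 days, resistant tumours taken at 120 days, and untreated control tumours, and the series title names BRAF inhibitors, which block the mutant kinase that drives many melanomas, as the agents. Strain, genotype, dose and age are not given in the sources used here, nor is whether each biopsy came from a separate animal, so p-values measure the spread between these biopsies. Titles carry codes whose meaning is not given, and no code is shared between groups, so code cannot be told apart from group. The 4-day tumours have a code series of their own, and the untreated tumours share a code except for replicate 4. In the resistant and 60-day groups the codes follow the slide, and there code and slide cannot be told apart either.

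Replication genes are transcribed mainly as cells pass from G1 into S phase. E2F transcription factors switch many of them on once cyclin D and its kinases have released E2F from the retinoblastoma protein, and in melanoma cells cyclin D1 in turn depends on BRAF and MAP kinase signalling. Origins are licensed in G1 when ORC, CDC6 and CDT1 load MCM rings, and in S phase CDC45 and the GINS complex turn those rings into moving helicases. The level of these transcripts in a tissue follows the share of its cells that are cycling as well as the amount per cell. In RNA of whole biopsies, fewer cells of a type and less RNA per cell cannot be told apart.

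All values below are log2 ratios of tumour over reference RNA, or differences between group means of these ratios given with the standard error from limma, over 4 arrays against 4. Between 49.0% and 54.2% of probes stood above background on each array, and the number of arrays limits the precision. The 10 melanocyte markers checked were all measured, with a mean log2 ratio per array between 1.24 and 3.48. Resistant replicate 1 stood apart, with a median correlation of 0.698 to the other arrays across genes, against at least 0.836 for every other array. It had the lowest mean level of keratinocyte markers, 1.29, melanocyte markers, 1.24, and hair follicle markers, 1.20. Its mean of macrophage and monocyte markers, 2.48, was the highest. The arrays lay on 2 slides that were scanned on different days and held 2 arrays of each group, with replicates 3 and 4 on slide 1 and replicates 1 and 2 on slide 2. Position on the slide followed the group, and the 2 cannot be told apart.

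After 4 days of treatment, replication genes as a group were expressed at lower levels than in untreated tumours. Of the 44 genes tested, 43 had a lower mean in 4-day than in untreated tumours, with a median difference of -0.48, against a median of -0.01 over all genes, of which 51.3% were lower. 8 genes fell at an adjusted p under 0.05 and none rose, where 0.928% of all genes tested fell. They were Mcm3, Mcm4 and Mcm6, which encode subunits of the replicative helicase, Pcna, the sliding clamp, Rfc2, a subunit of the clamp loader, Pola1 and Pole, the catalytic subunits of polymerases alpha and epsilon, and Chaf1a, the large subunit of chromatin assembly factor 1. In 20 genes every 4-day tumour lay below every untreated tumour, a separation shown by 4.19% of all genes in that direction. The differences ran from -1.04 to 0.07, and the median was -0.48 on slide 1 and -0.47 on slide 2. The number of calls depended on the arrays in the fit. Over all genes, in either direction, it was 295 in the fit used here. It was 702 without resistant replicate 1 and 633 with slide as a block. No member passed when untreated replicate 1 or untreated replicate 2 was left out, when array medians replaced loess or when the 60-day and resistant arrays were left out of the fit, 12 passed without resistant replicate 1, and 11 passed with slide as a block, which added Gins2, Prim2 and Tk1.

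**Figure D1:**
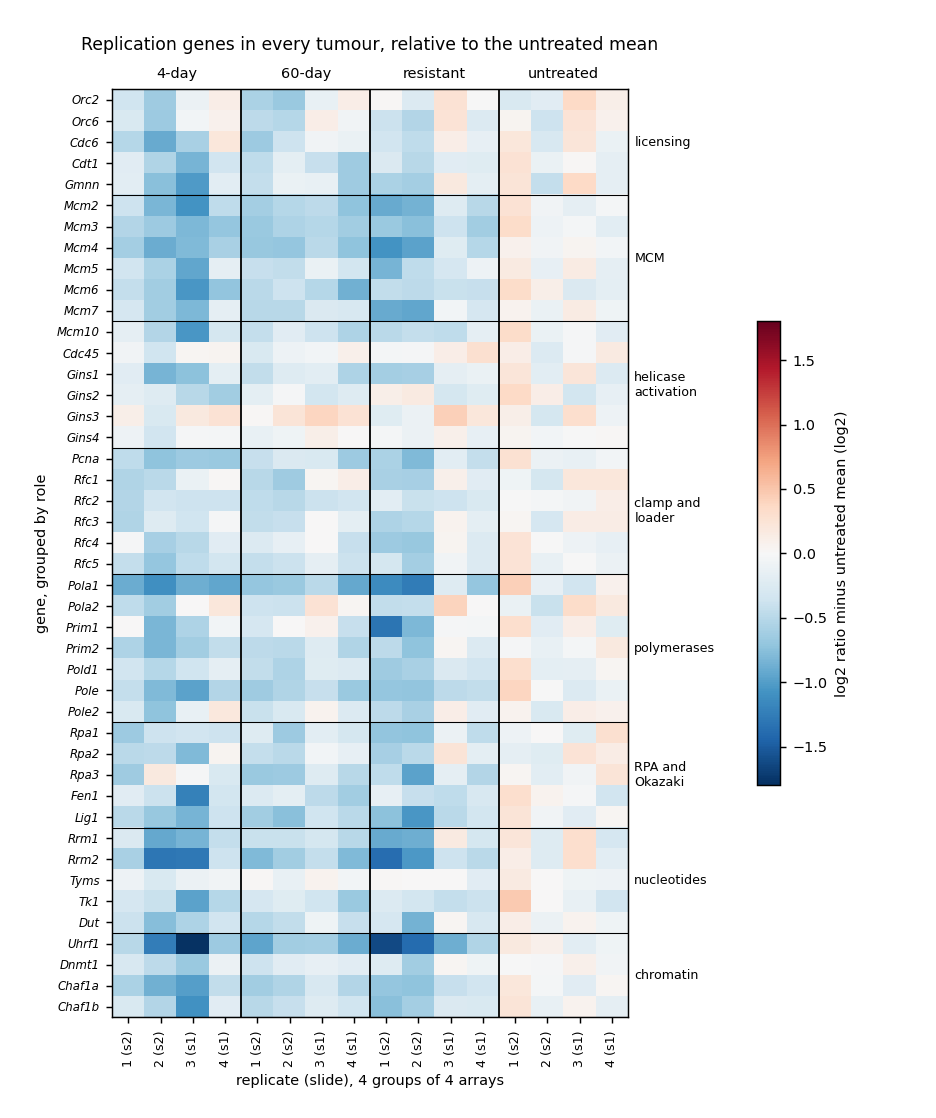
Each row is a gene and each column a tumour, grouped by treatment with the replicate number and slide under it; colour gives the log2 ratio minus the mean of the untreated tumours, blue for lower and red for higher. Most rows are blue across 4-day, 60-day and resistant tumours, with 4-day replicate 3 and resistant replicates 1 and 2 among the darkest columns, while Gins3, Gins4, Cdc45 and Tyms stay pale.

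Since the promoters of many replication genes carry E2F sites, the windows of called genes were read for 4 common E2F words, TTTGGCGC, TTTCCCGC, TTTCGCGC and TTTGCCGC, on both strands. The windows are the 250 bases before and 50 after the annotated start, from RefSeq on GRCm38.p6. For the 4 called genes with the smallest p after 4 days among those with a window, they are printed here 5′ to 3′ on the gene's strand, with the words in capitals, to show what a shared letter pattern looks like and where it is missing.
Mcm3: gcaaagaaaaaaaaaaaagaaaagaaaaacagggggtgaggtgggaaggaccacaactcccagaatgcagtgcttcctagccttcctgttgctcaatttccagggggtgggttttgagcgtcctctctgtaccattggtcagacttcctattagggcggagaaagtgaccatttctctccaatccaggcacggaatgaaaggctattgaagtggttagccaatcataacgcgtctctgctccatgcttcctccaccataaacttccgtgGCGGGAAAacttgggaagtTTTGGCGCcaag
Chaf1a: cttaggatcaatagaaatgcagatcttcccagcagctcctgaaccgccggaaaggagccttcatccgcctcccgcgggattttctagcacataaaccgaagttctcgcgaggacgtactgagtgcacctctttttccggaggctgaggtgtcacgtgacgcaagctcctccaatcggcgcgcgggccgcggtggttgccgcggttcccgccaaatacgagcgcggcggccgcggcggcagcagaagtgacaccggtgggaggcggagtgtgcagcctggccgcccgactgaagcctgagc
Pola1: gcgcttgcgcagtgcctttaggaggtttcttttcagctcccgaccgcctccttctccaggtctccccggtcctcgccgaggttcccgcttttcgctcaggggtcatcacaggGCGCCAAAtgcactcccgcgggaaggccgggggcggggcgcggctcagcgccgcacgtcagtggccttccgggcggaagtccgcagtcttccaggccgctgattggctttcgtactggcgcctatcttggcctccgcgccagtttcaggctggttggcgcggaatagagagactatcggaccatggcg
Mcm6: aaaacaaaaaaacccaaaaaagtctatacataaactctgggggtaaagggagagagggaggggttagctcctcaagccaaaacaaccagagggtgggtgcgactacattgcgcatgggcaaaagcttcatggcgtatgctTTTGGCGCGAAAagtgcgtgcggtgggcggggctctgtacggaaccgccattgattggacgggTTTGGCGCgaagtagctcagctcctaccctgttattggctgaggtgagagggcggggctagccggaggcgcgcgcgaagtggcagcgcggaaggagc
The Mcm3 window (chr1:20820263-20820562, minus strand) holds a word that begins 19 bases and another that begins 38 bases after the start. In Mcm6 (chr1:128359656-128359955, minus strand) a word 110 bases before the start overlaps a second one, on the other strand, 106 bases before it, and another begins 47 bases before the start. Pola1 (chrX:93632106-93632405, minus strand) holds 1 word, 138 bases before the start. The window of Chaf1a (chr17:56040166-56040465, plus strand) holds none of these letters in exact form, which says nothing about the factor. Among the 37 members with a window in the table, 15 (40.5%) held at least 1 word and 6 (16.2%) held several, against 704 of 27025 genes (2.60%) and 29 genes (0.11%) in the whole table. Of the other replication genes 10 of 36 held a word, and of the mitosis genes 1 of 26. A match is a description of letters and not evidence of binding.

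In origin licensing, all 5 genes tested had a lower mean in 4-day than in untreated tumours, with a median of -0.45 and no call. Cdt1, the factor that brings MCM rings to origins, had log2 ratios of -2.47, -2.82, -3.11 and -2.62 in 4-day tumours, against -2.01, -2.39, -2.25 and -2.44 in untreated tumours. The groups did not overlap, but the difference of -0.48 ± 0.15 had an adjusted p of 0.129. Geminin, encoded by Gmnn, holds CDT1 in check, and its difference of -0.54 ± 0.24 was likewise not called. Orc1, the subunit of the origin recognition complex whose level cycles in mammalian cells, stood above background on only 2 of 16 arrays, 1 of the 4-day and 1 of the 60-day group, and was not tested. Licensing genes had medians of -0.31 after 60 days and -0.23 in resistant tumours.

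The MCM helicase genes encode the ring that unwinds DNA at the fork. All 6 were lower on average in 4-day than in untreated tumours, between -0.72 and -0.47 with a median of -0.68, the lowest of the 8 role classes, and in 5 of them the groups did not overlap. Mcm3 (probe at chromosome 1, 20793119 to 20793178, minus strand, in the array design's mm9 coordinates) had log2 ratios of -1.92, -2.04, -2.20 and -2.09 in 4-day tumours, against -1.07, -1.48, -1.43 and -1.58 in untreated tumours. Every 4-day tumour lay below every untreated one, and the fall of 0.67 ± 0.12 on the log2 scale, 1.59-fold, had the smallest adjusted p of the members, 0.0224. A second Mcm3 probe gave -0.72. Mcm4 (chromosome 16, 15624372 to 15624431) stood at -1.50, -1.79, -1.68 and -1.48 in 4-day tumours, against -0.82, -0.96, -0.84 and -0.94 in untreated tumours. Its groups lay well apart, with a difference of -0.72 ± 0.16 (adjusted p = 0.0445). Mcm6 (chromosome 1, 130228178 to 130228237) read -1.54, -1.74, -2.16 and -1.82 in 4-day tumours, against -0.79, -1.01, -1.37 and -1.30 in untreated tumours, a difference of -0.70 ± 0.15 (adjusted p = 0.0446). On this gene untreated replicates 3 and 4, both on slide 1, came closest to the 4-day values. Mcm2 and Mcm7 also separated without a call, at -0.68 ± 0.17 and -0.47 ± 0.19, and Mcm5, at -0.51 ± 0.18, overlapped.

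Helicase activation was the class with the median closest to 0, -0.25, with no call and no gene in which 4-day and untreated tumours did not overlap. Mcm10, which helps to start unwinding, differed by -0.51 ± 0.17 (adjusted p = 0.169). Gins3, a GINS subunit, was the only member with a higher mean in 4-day tumours, which ranged from -1.09 to -0.55 against -1.12 to -0.51 in untreated tumours. Those ranges coincide, and the difference was 0.07 ± 0.17, with an interval from -0.30 to 0.43. Gins4 and Cdc45, singled out after their values were seen, differed by -0.12 ± 0.10 and -0.09 ± 0.13. The Cdc45 probe was dim, above background on 13 of 16 arrays. Gins1 and Gins2, the other GINS genes, gave -0.49 ± 0.19 and -0.38 ± 0.16 and were not called.

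Among the clamp and clamp loader genes, all 6 were lower after 4 days with a median of -0.37, and 2 were called. Pcna (chromosome 2, 132075022 to 132075054), the ring that tethers polymerases to DNA, had log2 ratios of -1.88, -2.15, -2.08 and -2.09 in 4-day tumours, against -1.15, -1.53, -1.55 and -1.48 in untreated tumours. The difference was -0.62 ± 0.14 (adjusted p = 0.0459), with untreated replicate 1 the highest of the arrays. Rfc2 (chromosome 5, 135073809 to 135073868) had -1.33, -1.14, -1.17 and -1.17 in 4-day tumours, against -0.81, -0.83, -0.87 and -0.68 in untreated tumours. Its difference of -0.41 ± 0.09 (adjusted p = 0.0417) was smaller than that of Pcna, but it had the smallest within-group SD of any member, 0.084, where the median of the members was 0.250 and that of all genes 0.267. Rfc5 separated without a call, at -0.47 ± 0.13. Medians of the class were -0.30 after 60 days and -0.32 in resistant tumours.

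Of the 7 polymerase and primase genes, all had a lower mean after 4 days, with a median of -0.36, and 2 were called. Pola1 (chromosome X, 90550189 to 90550248), which begins synthesis together with primase, had log2 ratios of -1.73, -1.94, -1.72 and -1.77 in 4-day tumours, against -0.41, -0.99, -1.19 and -0.77 in untreated tumours. This was the largest fall among the called genes, 0.95 ± 0.21 on the log2 scale, 1.93-fold (adjusted p = 0.0426). Pole (chromosome 5, 110766375 to 110766434), the leading-strand polymerase, had -1.84, -2.21, -2.37 and -1.94 in 4-day tumours, against -1.02, -1.42, -1.66 and -1.53 in untreated tumours. The difference was -0.68 ± 0.15 (adjusted p = 0.0435), but a second and dimmer Pole probe gave -0.15, and the call was lost when probes of a gene were averaged. Prim1, the catalytic primase subunit and the brightest probe of this class, overlapped between groups, with a difference of -0.36 ± 0.27 and the widest within-group SD of the members, 0.411. The class had medians of -0.37 after 60 days and -0.46 in resistant tumours.

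Single-strand binding and Okazaki fragment genes had no call, although all 5 were lower after 4 days, with a median of -0.43. Lig1, the ligase that seals Okazaki fragments, ranged from -1.86 to -1.39 in 4-day tumours, against -1.23 to -0.79 in untreated tumours. The groups were separate, and the difference of -0.59 ± 0.16 had an adjusted p of 0.0880. Rpa1, the large subunit of the single-strand binding protein, ranged from -1.05 to -0.74 in 4-day tumours, against -0.61 to -0.11 in untreated tumours, a difference of -0.43 ± 0.16 (adjusted p = 0.192). Fen1, which trims fragment ends, differed by -0.54 ± 0.20. After 60 days the class median was -0.38, and in resistant tumours -0.50.

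The nucleotide supply genes spanned a wide range, from Rrm2 to Tyms, and none was called. Rrm2 encodes the small subunit of ribonucleotide reductase, which makes deoxynucleotides. It ranged from -3.03 to -2.12 in 4-day tumours, against -1.97 to -1.44 in untreated tumours, without overlap, and the difference of -0.89 ± 0.25, 1.85-fold, had an adjusted p of 0.0930. Thymidylate synthase, encoded by Tyms and singled out after its values were seen, lay from -0.75 to -0.53 in 4-day tumours, against -0.57 to -0.31 in untreated tumours, with a difference of -0.13 ± 0.10. The Tyms probe was dim, with a mean log2 intensity of 7.61 against 12.19 for Rrm2, though above background on all 16 arrays. The differences of Tk1 and Dut lay between those of Rrm2 and Tyms, at -0.55 ± 0.17 and -0.51 ± 0.17. The class median was -0.55 after 4 days, -0.39 after 60 days and -0.35 in resistant tumours.

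All 4 chromatin genes separated 4-day from untreated tumours, with a median of -0.62, and medians of -0.44 after 60 days and -0.51 in resistant tumours. Chaf1a (chromosome 17, 56206969 to 56207028), which deposits histones on new DNA, had log2 ratios of -1.58, -1.88, -2.01 and -1.45 in 4-day tumours, against -0.80, -1.05, -1.21 and -0.98 in untreated tumours. It fell by 0.72 ± 0.14 on the log2 scale, 1.65-fold (adjusted p = 0.0318). Chaf1b, its partner subunit, differed by -0.52 ± 0.18 (adjusted p = 0.167), and Dnmt1, the maintenance DNA methyltransferase, by -0.38 ± 0.14. Uhrf1, which recruits DNMT1 to new DNA and is named here after its values were seen, had the lowest difference of all members, -1.04 ± 0.27, with an adjusted p of 0.0695. Its 4-day values were also among the most spread, at -1.57, -2.32, -2.86 and -1.74, against -0.90, -0.99, -1.28 and -1.15 in untreated tumours.

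**Figure D2:**
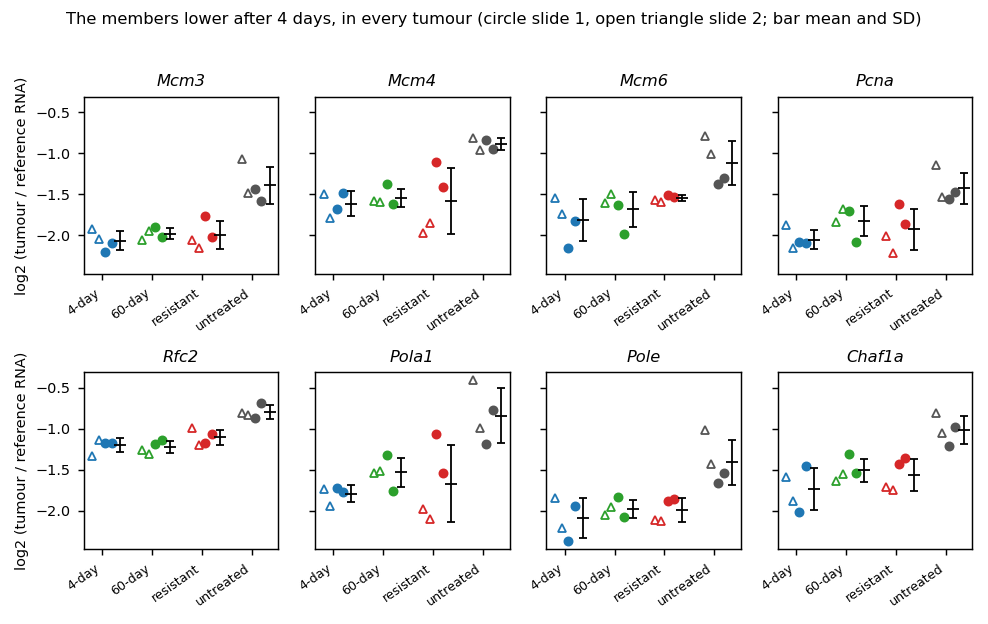
Each panel is a called gene; points are tumours on the log2 ratio scale, circles on slide 1 and open triangles on slide 2, and the bar beside each group gives its mean and SD (n = 4). In all 8 panels the 4-day points lie below the untreated points, and the resistant points of Mcm4 and Pola1 are the most spread.

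The second question was whether the genes stayed low under longer treatment. In 60-day tumours 43 of 44 members had a lower mean than in untreated tumours, with a median of -0.36 against 0.00 over all genes. Mcm3 and Rfc2 fell at an adjusted p under 0.05 and no member rose, where 0.469% of all genes tested fell. Mcm3 had log2 ratios of -2.05, -1.95, -1.90 and -2.01 in 60-day tumours, against -1.07 to -1.58 in untreated tumours, a difference of -0.59 ± 0.12 (adjusted p = 0.0382). Rfc2 had -1.26, -1.30, -1.19 and -1.14 in 60-day tumours, against -0.68 to -0.87 in untreated tumours, a difference of -0.42 ± 0.09 (adjusted p = 0.0381). Both genes were thus lower in every 60-day tumour than in any untreated one. Over all genes, 180 were called in either direction, against 626 with slide as a block and 1099 without untreated replicate 3. With slide as a block Mcm4 and Mcm6 were called as well, at -0.65 ± 0.14 and -0.56 ± 0.12, while no member was called without any 1 of 60-day replicates 1 to 4, untreated replicates 1, 2 or 4, 4-day replicate 1 or resistant replicate 4, and 6 were called without untreated replicate 3.

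In 22 members all 60-day tumours lay below all untreated tumours, against 6.4% of all genes in that direction. The classes kept a spread of medians, from -0.57 for the MCM genes to -0.14 for helicase activation. Gins3 had the only higher mean, 0.22 ± 0.17, and Gins4 and Tyms lay close to 0, both at -0.02. Setting 60-day against 4-day tumours, no member was called (0% of all genes were, and no member had an unadjusted p under 0.05), with a median difference of 0.13. Of the 44 members 38 had a higher mean in 60-day tumours and 6 a lower one. Over all genes the median was 0.02 and 45.5% had a lower mean in 60-day tumours.

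Resistant tumours bear on whether replication genes were back at untreated levels once resistance was acquired. Against untreated tumours, 41 of 44 members had a lower mean, with a median of -0.36 against 0.01 over all genes, but limma called none (0.0182% of all genes were called in either direction). At an unadjusted p under 0.05 there were 22 members, against 9.52% of all genes, and the fit with array weights called 11 members and 958 of all genes. The smallest adjusted p, 0.105, belonged to Mcm3. Its log2 ratios were -2.06, -2.15, -1.76 and -2.02 in resistant tumours, against -1.07 to -1.58 in untreated tumours. The groups did not overlap, and the difference was -0.61 ± 0.12, with a 95% interval from -0.86 to -0.35. Mcm4 read -1.97, -1.85, -1.10 and -1.41 in resistant tumours, against -0.82 to -0.96 in untreated tumours, a difference of -0.69 ± 0.16 (adjusted p = 0.139). Uhrf1 had -2.70, -2.46, -1.96 and -1.61 in resistant tumours, against -0.90 to -1.28 in untreated tumours, a difference of -1.11 ± 0.27 (adjusted p = 0.147).

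Pairs of resistant tumours differed by slide. In Mcm4, Pola1 and Prim1 replicates 1 and 2, which share a title code and slide 2, were lower than replicates 3 and 4. Prim1, for example, stood at -3.25 and -2.74 in resistant replicates 1 and 2 and at -1.96 and -1.98 in resistant replicates 3 and 4, against -1.63 to -2.16 in untreated tumours. Over all members, the median difference of resistant from untreated tumours was -0.57 on slide 2 and -0.18 on slide 1; the difference between the slides was not tested. Without resistant replicate 1 the median was -0.33 and again no member was called. In 14 members all resistant tumours lay below all untreated tumours, against 2.74% of all genes in that direction. Mcm6 was among them, with a narrow range from -1.59 to -1.51 in resistant tumours, against -1.37 to -0.79 in untreated tumours. Orc2, Cdc45 and Gins3 had means at or above the untreated mean, at 0.00 ± 0.21, 0.08 ± 0.13 and 0.08 ± 0.17. The Orc2 and Cdc45 probes were dim, with mean log2 intensities of 7.94 and 7.39, while that of Gins3 was bright, at 13.61.

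Directly against 4-day tumours, resistant tumours showed no call among the members (0.00455% of all genes tested were called) and none had an unadjusted p under 0.05. The median difference was 0.10, with 32 members higher and 12 lower in resistant tumours. Over all genes the median was 0.01 and 48.1% were lower in resistant tumours. The direction of the member median turned with the slide, from 0.30 on slide 1 to -0.08 on slide 2. For the 8 genes called after 4 days the differences ran from 0.03 for Mcm4 to 0.27 for Mcm6. The interval for Mcm3, from -0.19 to 0.33, and that for Pola1, from -0.32 to 0.57, left room for changes in either direction, so that the absence of a call does not show equal levels. Against 60-day tumours the median was -0.02, 0.10 on slide 1 and -0.11 on slide 2. No member was called (0% of all genes were, and no member had an unadjusted p under 0.05). Of the members 26 were lower and 18 higher in resistant tumours, where over all genes 50.6% were lower and the median was -0.003. All comparisons with untreated tumours share those 4 arrays, and their values are given side by side for that reason.

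**Figure D3:**
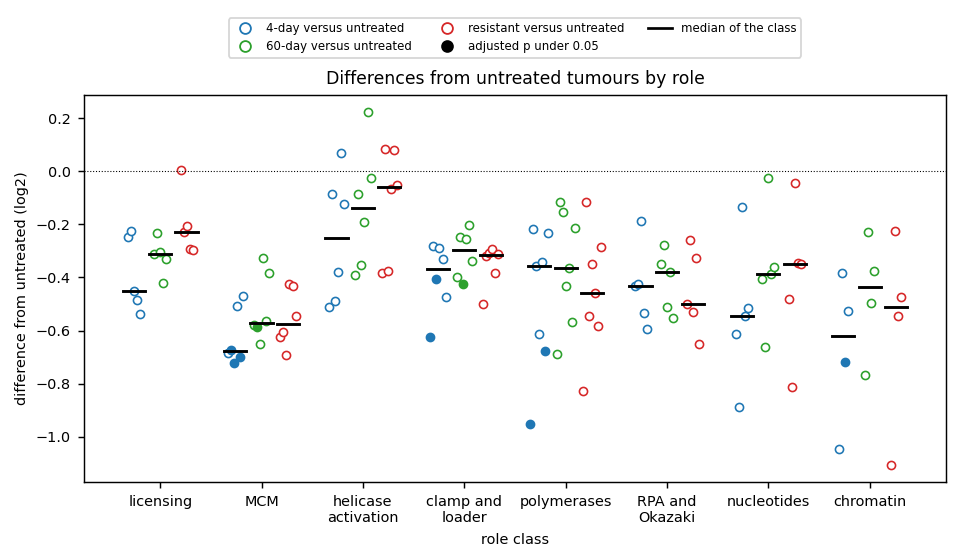
Points are members, placed by role class, with the difference of their mean from untreated tumours on the log2 scale in 4-day (blue), 60-day (green) and resistant tumours (red); filled points passed an adjusted p under 0.05 and black bars are class medians. MCM genes lie lowest as a class with chromatin genes, and helicase activation genes lie closest to 0, with medians of -0.25, -0.14 and -0.06.

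**Figure D4:**
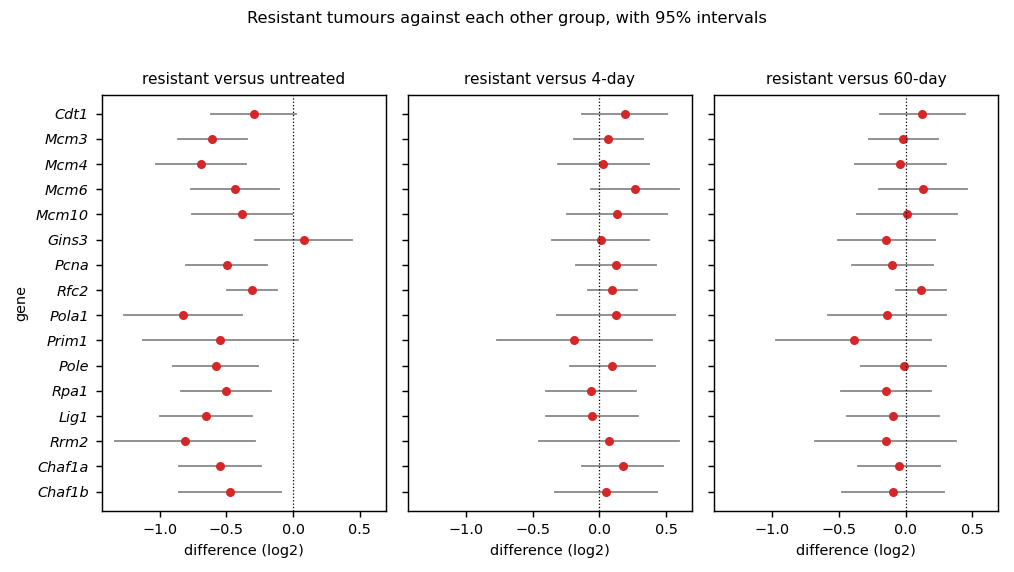
Points give the difference of resistant tumours from untreated, 4-day and 60-day tumours for 16 named genes on the log2 scale, and lines give 95% intervals not adjusted for the number of genes. Against untreated tumours all but Gins3 lie below 0, and against 4-day and 60-day tumours every interval includes 0.

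Across the 4 groups, the untreated mean was the highest for 41 of 44 members, and the lowest mean was in the 4-day group for 28, in the resistant group for 11, in the 60-day group for 4 and in the untreated group for 1. Taken per tumour, the median over the members ranged from -1.93 to -1.46 in 4-day tumours, from -1.63 to -1.39 in 60-day tumours and from -1.81 to -1.36 in resistant tumours, against -1.31 to -0.999 in untreated tumours. No treated or resistant tumour reached the untreated range. Single tumours weighed unequally: untreated replicate 1 had the highest value of all arrays in 24 members, 4-day replicate 3 the lowest in 15, 4-day replicate 2 in 11 and resistant replicate 2 in 8. Nearly all values, 699 of 704, were below 0, which means less signal from tumour than from reference RNA. Prim2 was the exception, above 0 in the untreated tumours and in resistant replicate 3. Values also differed by slide. At an adjusted p under 0.05, 13 of 44 members differed, a share close to the 28.4% of all genes that differed in either direction. Of the 13 members 10 were lower on slide 2, as were 2970 of the 6235 genes called over all genes. The median (slide 2 minus slide 1) was -0.14 over the members and 0.02 over all genes. Rfc1 (-0.51) and Pola2 (-0.58) were among those that differed between slides.

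Other genes of the pathway were set beside the members. Among 44 further replication genes, 41 had a lower mean in 4-day than in untreated tumours, with a median of -0.34. At an adjusted p under 0.05, 5 of them fell, where 0.928% of all genes tested fell after 4 days and 0.469% after 60 days. Timeless and Tipin, which encode partners in the fork protection complex, differed by -0.72 ± 0.12 (adjusted p = 0.0112) and -0.71 ± 0.15 (adjusted p = 0.0398). The other calls were Mtbp and Donson, whose products act at origins and forks, at -0.65 ± 0.11 and -0.50 ± 0.10, and Asf1b, a histone chaperone, at -0.75 ± 0.17. After 60 days Timeless and Mtbp fell, by 0.84 ± 0.12 (adjusted p = 0.00573) and 0.53 ± 0.11 (adjusted p = 0.0438) on the log2 scale, and in resistant tumours none of the 44 was called.

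Regulators that act before S phase were examined too. Of 24 genes of E2F and G1/S control, 23 were measured and 17 had a lower mean in 4-day than in untreated tumours. After 4 days 5 fell, where 0.928% of all genes tested fell after 4 days and 0.469% after 60 days. E2f1 had log2 ratios of -1.49, -1.38, -1.47 and -1.61 in 4-day tumours, -1.60, -1.44, -1.62 and -1.49 in 60-day tumours and -1.16, -1.24, -1.50 and -1.50 in resistant tumours, against -0.43, -0.48, -1.10 and -0.62 in untreated tumours. The differences were -0.83 ± 0.14 after 4 days (adjusted p = 0.0132), -0.88 ± 0.14 after 60 days (adjusted p = 0.0145) and -0.69 ± 0.14 in resistant tumours (adjusted p = 0.105). Ccnd1, the cyclin D1 gene, fell by 2.40 ± 0.30 on the log2 scale after 4 days (adjusted p = 0.00224). Its 4-day values of -0.10, 0.73, -0.13 and -0.04 lay far below the untreated values of 2.78, 2.72, 1.75 and 2.81. The 60-day values were 1.66, 0.41, 0.99 and 1.73, with a difference from untreated of -1.32 ± 0.30 (adjusted p = 0.0564). Resistant tumours lay at 1.45 to 1.78, with a difference from untreated of -0.87 ± 0.30 (adjusted p = 0.337). Every resistant tumour lay above every 4-day tumour, and the difference of 1.53 ± 0.30 had an adjusted p of 0.197. Set against 60-day tumours, resistant tumours differed by 0.45 ± 0.30 (adjusted p = 0.930). Ccnd2, Ccnd3 and Cdk6 fell too after 4 days, with differences of -0.96 ± 0.19, -1.37 ± 0.31 and -0.67 ± 0.15. Only E2f1 of this list was called after 60 days.

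Mitosis genes were lower without a call. All 28 measured genes of 30 had a lower mean in 4-day than in untreated tumours, with a median of -0.68, and 20 had an unadjusted p under 0.05, against 16.7% of all genes. Top2a, a topoisomerase of dividing cells, differed by -0.73 ± 0.20 (adjusted p = 0.0944), and Mki67, the proliferation marker Ki-67, by -0.68 ± 0.44 (adjusted p = 0.482). Mki67 ranged from -2.19 to -0.98 in 4-day tumours, against -1.69 to -0.52 in untreated tumours, and overlapped. The medians of the list were -0.30 after 60 days and -0.50 in resistant tumours, the last -0.89 on slide 2 and -0.12 on slide 1.

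Marker lists of skin structures and other cell types were read beside these values. After 4 days 1 of 8 sebaceous gland markers and 1 of 10 melanocyte markers were called, both higher. None of the 15 hair follicle, 10 keratinocyte or 10 fibroblast markers was called. After 60 days 2 sebaceous gland markers were called, higher, and no marker of the other 4 lists. Over all 21985 genes tested, 91 were called higher after 4 days and 77 after 60 days. The mean of 15 hair follicle markers, all measured, ranged from 3.63 to 4.93 in 4-day tumours, from 4.16 to 4.54 in 60-day tumours and from 1.20 to 4.00 in resistant tumours, against 1.26 to 3.92 in untreated tumours. The mean of 8 sebaceous gland markers ranged from 2.29 to 3.29 in 4-day tumours, from 2.90 to 3.58 in 60-day tumours and from 0.16 to 3.53 in resistant tumours, against 1.10 to 2.36 in untreated tumours. Melanocyte markers ranged from 1.79 to 3.48 in 4-day tumours, from 2.32 to 3.28 in 60-day tumours and from 1.24 to 2.94 in resistant tumours, against 1.56 to 1.92 in untreated tumours. In each of these lists, and for keratinocyte, endothelium and adipocyte markers, the 4-day and 60-day means were above the untreated mean. Both were below it for fibroblast, macrophage and monocyte, and T cell markers. Skeletal muscle markers were above it after 4 days and below it after 60 days. Keratinocyte markers, 10 of 10 measured, ranged from 3.33 to 4.39 in 4-day tumours, from 3.79 to 4.47 in 60-day tumours and from 1.29 to 4.57 in resistant tumours, against 3.25 to 3.69 in untreated tumours. Resistant replicate 1 set the low end of the resistant range for hair follicle, melanocyte and keratinocyte markers. The next lowest resistant tumours lay at 2.98, 1.49 and 3.61. Fibroblast markers, 10 of 10 measured, ranged from 2.27 to 3.67 in 4-day tumours, from 2.78 to 3.11 in 60-day tumours and from 2.54 to 3.77 in resistant tumours, against 2.59 to 3.87 in untreated tumours. Macrophage and monocyte, T cell, endothelium, skeletal muscle and adipocyte markers had no call after 4 or 60 days. The mean of 8 skeletal muscle markers ranged from 1.01 to 3.83 in 4-day tumours and from -0.14 to 3.61 in 60-day tumours. It ranged from 1.05 to 3.58 in resistant tumours, against 0.70 to 3.77 in untreated tumours. The median muscle difference after 4 days was 1.61 on slide 1 and -1.15 on slide 2. The part of any of these markers in the levels of the replication genes was not tested.

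**Figure D5:**
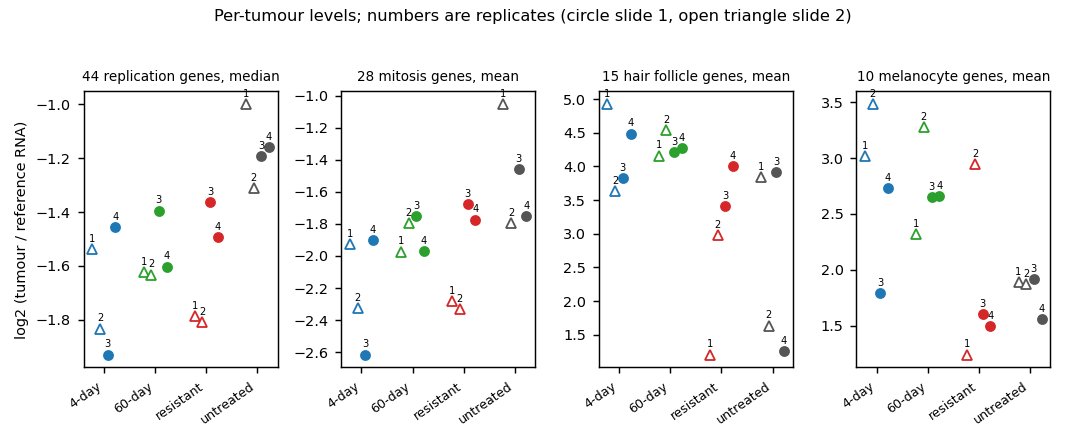
Each point is a tumour, numbered by replicate, with circles on slide 1 and open triangles on slide 2; panels give the median log2 ratio of the 44 replication genes and the mean log2 ratios of mitosis, hair follicle and melanocyte markers. Untreated tumours lie above all others in the panel of replication genes, at -1.31 to -0.999; in the panel of mitosis genes they lie above the 4-day tumours and overlap with the 60-day and resistant tumours.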

How the data were processed

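The deposited scanner files give, per the file headers, spot intensities from Agilent Feature Extraction 10.7.3.1 in both channels (mean signal and median background), with outlier and above-background flags. The deposited value table holds log ratios of the same arrays. The scanner's own log10 ratios in the deposited files, turned to log2, gave a slope of 0.993 against it, so the value table was read as log2 of Cy5 over Cy3, with medians between -0.194 and -0.0638 per array and centring unstated. Signals were corrected by normexp (offset 50) and loess-normalized within arrays with limma 3.58.1 in R 4.3.3, giving log2 ratios from the deposited intensities. Outlier spots (0.550% of values) were left out and control spots had no weight in loess. Spots of a probe were averaged, probes above background in Cy5 on at least 4 of 16 arrays were kept (30486 of 55681), and the brightest probe stood for its gene. Accessions of 28026 probes matched RefSeq, which updated 1651 symbols. Groups came from the labels. Limma fitted 4 groups in 1 model for 6 comparisons, with Benjamini-Hochberg adjustment over 21985 genes and a threshold of 0.05. The procedure was tested on simulated data that held no slide differences. The planted differences were larger than the median member difference after 4 days, so recovery at that size was not tested. Genes named were those past the threshold in any comparison, and in each of 8 role classes the member with the smallest p after 4 days and the one with the brightest probe; of other lists E2f1, Ccnd1, Mki67, Top2a and any gene called after 4 or 60 days. Members named beyond these were named after their values were seen. The members, lists and alternatives were chosen with earlier results of these data known. Alternatives changed the slide term, normalization, filter, choice of probe, arrays fitted and array weights.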

Additional observations from a re-analysis of the deposited data

Results flagged for a closer look

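In groups of 4, a tumour was singled out when its gap to the nearest other, as a share of the group's range, passed Dixon's 95% critical value, which chance alone does in about 1 of 20 groups. This held for 4 of 68 groups of values examined. The median over the 44 replication genes was -1.3946 in 60-day replicate 3, above the other 60-day tumours, which lay between -1.6325 and -1.6025. Mcm4 was also highest in that tumour, at -1.3751 against -1.6158 to -1.579 in the other 60-day tumours. Mcm10 was higher in resistant replicate 4, at -1.7848, than in the other resistant tumours, at -2.0982 to -2.0494. Rpa1 was lower in 4-day replicate 1, at -1.0517, than in the other 4-day tumours, at -0.7785 to -0.7402.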

How the results depend on the processing

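Against untreated tumours the direction was the same in every setting and the number of calls was not. The median over the members stayed below 0 in all 27 settings for 4-day, 60-day and resistant against untreated tumours, in ranges of -0.57 to -0.35, -0.42 to -0.26 and -0.57 to -0.18. The median of resistant against 4-day tumours, 0.10, ranged from -0.08 to 0.30 and was below 0 in 2 of 27 settings, and that against 60-day tumours ranged from -0.15 to 0.10. Calls after 4 days were 8, and became 11 with slide as a block, 2 with the scanner's processed signals or the deposited value table, 4 without the filter on dim probes, 15 with array weights, and 0 within slide 1, within slide 2, with median centring or with both groups fitted alone. Leaving out 1 array gave 0 to 12. Calls after 60 days were 2, and became 4 with slide as a block, 7 with both groups fitted alone, 17 with array weights, and 0 within slide 1, within slide 2, with the processed signals, the value table or median centring. Leaving out 1 array gave 0 to 6. In resistant against untreated tumours 11 members were called with array weights, and 0 under every other setting, as for the 3 comparisons among treated and resistant tumours under all settings. Calls over all genes moved as well. After 4 days they were 295, and became 633 with slide as a block and 4039 with array weights. After 60 days they were 180, and became 626 with slide as a block. They became 1258 with both groups fitted alone and 4887 with array weights. Each slide alone holds 2 arrays of a group, and fewer arrays are fitted there and with both groups alone; the causes of the other changes were not tested. For the called genes taken singly, the call held in 111 values by gene and setting and was lost in 158, and none of these changed sign. No paired analysis was possible because replicate numbers only follow the order of the samples. Probes near background limit the lowest genes, Orc1, Pola2 and Cdc45, and the Tyms and Orc2 probes were dim as well.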
